A study of Mus musculus with 9 samples.

Results

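Markers of pericytes and vascular mural cells were followed through hepatic stellate cells and the activated fibroblasts of 2 mouse models of liver fibrosis. The markers were 10 genes, Rgs4, Rgs5, Kcnj8, Abcc9, Cspg4, Mcam, Olfr558, Olfr78, Higd1b and Aoc3, found by their symbols among 24453 genes. They were chosen by their reputation as mural markers and with their levels in these same libraries known. Of these, 4 (Olfr558, Olfr78, Higd1b and Aoc3) also stood on the study's own list of genes selective for NASH-fib, drawn from the same libraries. The levels and fold changes of the 10 genes are therefore a description, given with no p. Calls on them come from a fit over all genes and are counted only to stand beside the share of all genes called. All 10 were among the 13651 genes that passed a filter on low reads.

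Mural cells wrap the walls of blood vessels, with pericytes on capillaries and smooth muscle cells on larger vessels. Hepatic stellate cells (HSCs) are the pericytes of the liver sinusoid, where they store vitamin A and, after injury, can turn into collagen-producing fibroblasts. Markers of mural cells fall into signalling regulators (Rgs4, Rgs5), the ATP-sensitive potassium channel (Kcnj8, Abcc9), surface proteins (Cspg4, Mcam, Aoc3), a mitochondrial protein (Higd1b) and olfactory receptors expressed outside the nose (Olfr558, Olfr78).

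RNA sequencing covered 3 libraries in each of 3 groups, all on the C57BL/6J strain, with the cells of 3 to 5 mice in each library. Livers of untreated wild-type mice gave the HSCs, which were separated by density gradient. CCl4-fib came from Col1a2-GFP Tg mice injected with carbon tetrachloride (CCl4) 2 times per week for 8 weeks. NASH-fib came from male Col1a2-GFP Tg mice that also lacked the melanocortin 4 receptor (MC4R-KO), were put on Western diet at 8 weeks of age and ate it for 20 weeks. The ages of the other mice are not given in the sources used here. Both kinds of fibroblast were sorted as CD45- GFP+ cells. The transgene is driven by the collagen α2(I) promoter, so the sort kept only cells in which that promoter was active. HSCs were not sorted on GFP, and isolation method, genotype and treatment cannot be told apart between HSCs and the fibroblasts. Diet and the loss of the receptor cannot be told apart in NASH-fib. In such bulk libraries, fewer cells of a type and less RNA per cell cannot be told apart.

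The libraries held between 3071070 and 5634273 reads on genes. The deposited value of a gene is its read number times a scale factor that brings each library to the same total, and it is called the value below. A value of 2.38 to 4.37, depending on the library, corresponds to 3 reads. Libraries of a group correlated at r = 0.768 to 0.937 across the genes tested, lowest among NASH-fib. The receptor gene Mc4r had 0 reads in all HSC and CCl4-fib libraries and at most 13 in NASH-fib, too few to check the labels.

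Of the 10 genes, 6 form neighbouring pairs whose levels are set against each other below, so the sequences before the starts of 5 of these are shown. Rgs5 (chr1:169655501-169695813, plus strand, NM_009063) and Rgs4 (chr1:169741477-169747642, minus strand, NM_009062) lie 45.7 kb apart in mm10 with 0 annotated genes between them. Kcnj8 (chr6:142564939-142571356, NM_008428) and Abcc9 (chr6:142587862-142702274, NM_021041), both on the minus strand, lie 16.5 kb apart, again with 0 genes between. Olfr558 (chr7:102702323-102712054, plus strand, NM_147093) and Olfr78 (chr7:102740721-102759471, minus strand, NM_130866) lie 28.7 kb apart. Upstream sequences from RefSeq were matched for 7 of the 10 genes. The 250 bases before the start of 5 of them follow, 5′ to 3′ on the strand of the gene, with matches to the motifs searched in capitals. The window of Kcnj8 precedes a RefSeq start that lies upstream of the transcript given above.
Rgs5 (GRCm38.p6, chr1:169655251-169655500, plus strand): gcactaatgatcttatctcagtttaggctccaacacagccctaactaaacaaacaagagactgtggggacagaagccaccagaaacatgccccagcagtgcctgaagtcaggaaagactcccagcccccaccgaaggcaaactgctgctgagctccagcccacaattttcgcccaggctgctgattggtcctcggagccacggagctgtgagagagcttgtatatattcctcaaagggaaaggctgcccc
Rgs4 (GRCm38.p6, chr1:169747643-169747892, minus strand): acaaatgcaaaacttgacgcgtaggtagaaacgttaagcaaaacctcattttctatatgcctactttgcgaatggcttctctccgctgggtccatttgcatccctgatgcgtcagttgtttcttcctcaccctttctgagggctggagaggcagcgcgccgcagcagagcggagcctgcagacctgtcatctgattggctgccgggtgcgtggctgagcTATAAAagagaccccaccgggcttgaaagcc
Kcnj8 (GRCm38.p6, chr6:142571615-142571864, minus strand): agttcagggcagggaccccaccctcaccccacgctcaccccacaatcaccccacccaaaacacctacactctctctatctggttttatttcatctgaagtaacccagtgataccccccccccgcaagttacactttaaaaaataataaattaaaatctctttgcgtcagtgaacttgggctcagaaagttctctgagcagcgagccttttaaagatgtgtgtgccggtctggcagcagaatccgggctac
Abcc9 (GRCm38.p6, chr6:142702275-142702524, minus strand): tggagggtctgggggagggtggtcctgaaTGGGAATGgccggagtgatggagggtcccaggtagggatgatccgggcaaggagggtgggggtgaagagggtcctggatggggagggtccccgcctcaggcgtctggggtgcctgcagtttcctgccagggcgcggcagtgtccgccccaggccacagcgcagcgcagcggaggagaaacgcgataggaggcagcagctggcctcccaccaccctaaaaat
Olfr558 (GRCm38.p6, chr7:102702073-102702322, plus strand): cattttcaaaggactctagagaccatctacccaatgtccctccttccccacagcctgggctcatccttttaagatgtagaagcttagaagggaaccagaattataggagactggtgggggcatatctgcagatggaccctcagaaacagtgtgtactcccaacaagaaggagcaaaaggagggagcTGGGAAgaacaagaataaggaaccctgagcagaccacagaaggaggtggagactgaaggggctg
The motifs searched on both strands were the CArG box of serum response factor, TGGGAA (the core bound by RBPJ, the effector of Notch), GGAATG (the core bound by TEAD factors) and TATAAA. The CArG box was in 0 of the 7 windows and in 1.47% of 32851 windows of the same length. TGGGAA was in the windows of Abcc9, 221 bases before the start, and Olfr558, 64 bases before it, and in 21.6% of all windows. GGAATG was in the window of Abcc9 alone, overlapping the TGGGAA match, and in 12.6% of all. TATAAA was in the window of Rgs4 alone, 31 bases before the start, and in 12.4% of all. A match describes the letters only.

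The 10 genes fell into 2 sets by their level in HSCs. Rgs4, Rgs5, Kcnj8, Abcc9 and Mcam were read in all 9 libraries, with at least 53 reads each. Cspg4, Olfr558, Olfr78, Higd1b and Aoc3 had at most 5 reads in any HSC library and at least 37 in every fibroblast library. Per kb of transcript, Rgs5 had the highest mean value in each group, 5070 in the HSC libraries, 1614 in those of CCl4-fib and 5383 in those of NASH-fib. Abcc9 followed in HSCs, at 1579 per kb. Higd1b was second in CCl4-fib, at 341 per kb. In NASH-fib, Rgs4 and Higd1b followed at means of 1000.2 and 974 per kb, and their order differed between libraries, Higd1b being the higher in replicate 2 alone.

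**Figure D1:**
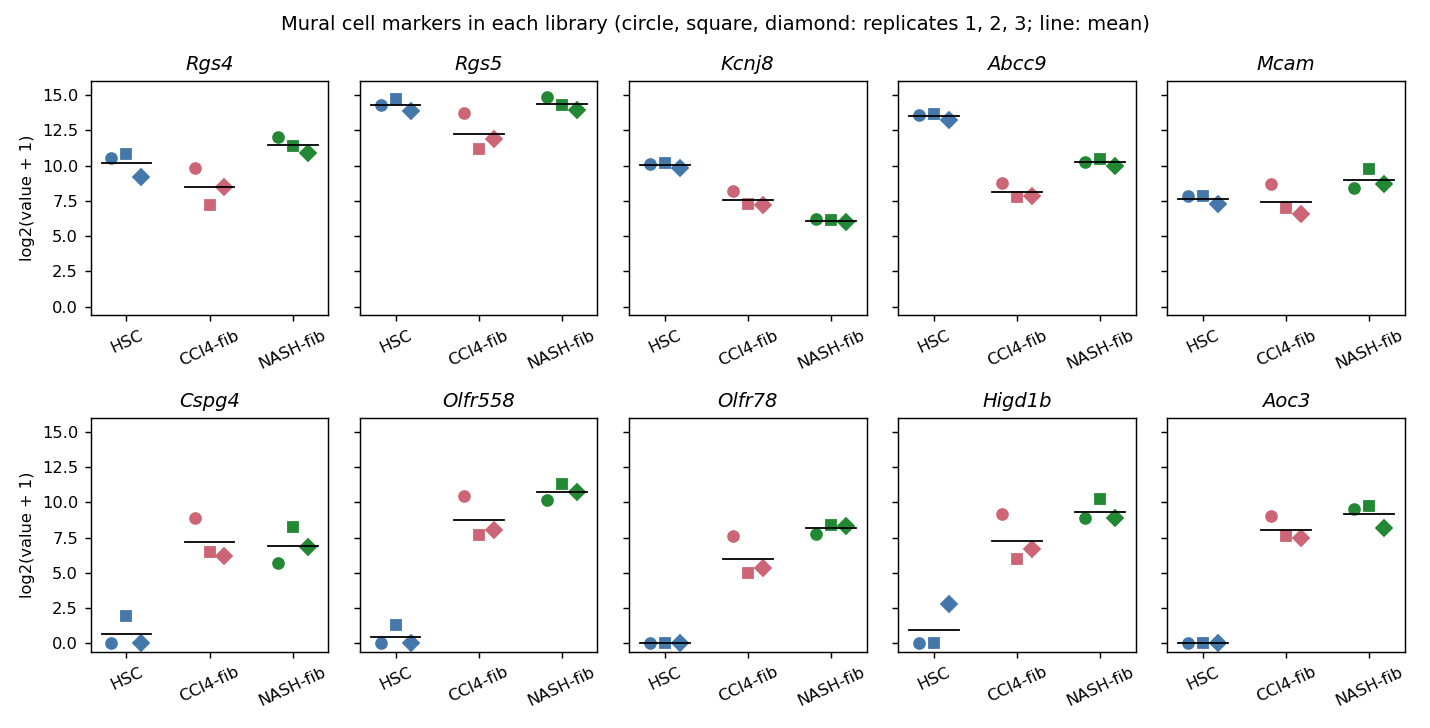
Level of each of the 10 mural markers, as log2(value + 1) on the vertical axis, in each library of the 3 groups on the horizontal axis. Points are libraries and lines are group means of the log2 values. The 5 genes of the lower row lie between 5 and 12 in every fibroblast library and lower than that in every HSC library. CCl4-fib replicate 1 is the highest of its group for all 10 genes.

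Rgs5 encodes a regulator that shortens signalling by G proteins and is among the best known pericyte markers. Its value was 19975, 27511 and 14708 in the HSC libraries, 13715, 2296 and 3792 in those of CCl4-fib and 29830, 20211 and 15987 in those of NASH-fib. HSCs and NASH-fib overlapped, and the 3 CCl4-fib libraries were the lowest of all. By rank of reads, not divided by transcript length, Rgs5 was first of all genes in HSC replicates 1 and 2 and NASH-fib replicate 1. It ranked 291 in CCl4-fib replicate 2. By the stated settings, reads were counted with a ceiling of 3 per position. Rgs5 held between 3.01 and 5.55 reads per base of transcript in 7 of the 9 libraries and 0.660 and 0.972 in CCl4-fib replicates 2 and 3, and no other marker passed 1.82. Other genes reached 11.3 reads per base, more than a ceiling of 3 allows over the listed length, even with each strand counted separately. How the ceiling was applied is therefore not known, and how far it acted on Rgs5 was not tested.

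Rgs4 encodes a regulator of the same family. Its value was 1475, 1845 and 600.2 in the HSC libraries, 931, 147 and 356 in those of CCl4-fib and 4160, 2716 and 1928 in those of NASH-fib. Every NASH-fib library was above every other library, while HSCs and CCl4-fib overlapped. The 2 neighbours moved together across the 9 libraries, with r = 0.93 on the log2 scale, a description over libraries of 3 groups. Per kb, the Rgs5 value was 9.72, 10.7 and 17.6 times that of Rgs4 in the HSC libraries, 10.6, 11.2 and 7.65 times in those of CCl4-fib and 5.15, 5.34 and 5.95 times in those of NASH-fib. The ratio was lower in each NASH-fib library than in any other. Rgs5 held 3.98 to 5.55 reads per base in the NASH-fib libraries, 3.01 to 4.62 in those of HSCs and 0.660 to 4.23 in those of CCl4-fib. Any part of the read ceiling in the ratio was not tested.

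Kcnj8 encodes Kir6.1, the pore of the vascular potassium channel that closes when ATP is plentiful. Its value was 1112, 1188 and 928 in the HSC libraries, 298, 152 and 151 in those of CCl4-fib and 72.1, 70.4 and 61.9 in those of NASH-fib. The 3 groups did not overlap, and the order ran from HSCs through CCl4-fib to NASH-fib. Abcc9 encodes SUR2, the regulatory subunit of the same channel. Its value was 12493, 13106 and 9896 in the HSC libraries, 426, 214 and 225 in those of CCl4-fib and 1208, 1424 and 1020 in those of NASH-fib. Its groups did not overlap either, but NASH-fib lay above CCl4-fib, the reverse of the order for Kcnj8. Abcc9 shares 158 exonic bases, 1.89% of its exons, with the antisense gene 5330439B14Rik. Reads were counted without strand, and that gene had at most 83 reads in a library.

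The transcripts of the pore and its partner therefore stood in a different proportion in each group. Per kb, the Abcc9 value was 3.27, 3.21 and 3.11 times that of Kcnj8 in the HSC libraries, 0.42, 0.41 and 0.44 times in those of CCl4-fib and 4.89, 5.90 and 4.80 times in those of NASH-fib. Replicates of a group lay close to each other, including CCl4-fib replicate 1, in which Kcnj8 was 1.96 times and Abcc9 1.94 times the mean of the other 2 replicates. The pair that forms the related channel of the pancreas and neurons, Kcnj11 and Abcc8, had 0 reads in all 9 libraries.

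**Figure D2:**
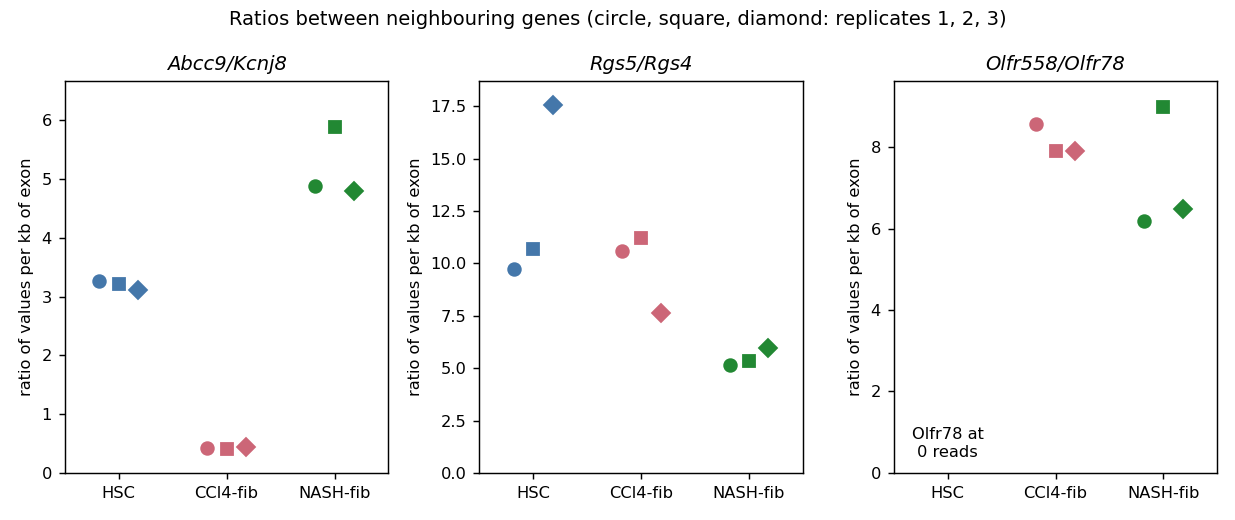
Ratio of the values per kb of transcript between neighbouring genes (vertical axis, linear) in each library of the 3 groups (horizontal axis), a point per library. The Abcc9 to Kcnj8 ratio is 3.11 to 3.27 in the HSC libraries, 0.41 to 0.44 in those of CCl4-fib and 4.80 to 5.90 in those of NASH-fib, and the Olfr558 to Olfr78 ratio has no value in HSCs, where Olfr78 had 0 reads.

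Cspg4 (chr9:56865104-56899870, NM_139001) encodes NG2, a proteoglycan on the surface of pericytes. It had 0, 2 and 0 reads in HSCs. Its value was 478, 88.5 and 72.5 in the CCl4-fib libraries and 50.3, 298 and 114 in those of NASH-fib. The fibroblast groups overlapped and both lay above HSCs. Against the 2 reads of HSCs, the ratio of reads at equal depth was 202 in NASH-fib (exact 95% counting interval 55.6 to 1671) and 267 in CCl4-fib (73.7 to 2208). Without CCl4-fib replicate 1 the latter fell to 96.3, and without NASH-fib replicate 2 the former fell to 104. Intervals and floors cover counting error only.

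Mcam (chr9:44134658-44142726, NM_023061) encodes CD146, an adhesion molecule of mural and endothelial cells. Its value was 226, 229 and 152 in the HSC libraries, 416, 126 and 95.4 in those of CCl4-fib and 347, 891 and 421 in those of NASH-fib. NASH-fib lay above HSCs without overlap, and CCl4-fib overlapped both other groups. Summed over 10 endothelial markers, led by Clec4g, a sinusoidal endothelial lectin, the value was 6570 to 12124 in the HSC libraries, 239 to 346 in those of CCl4-fib and 1103 to 3526 in those of NASH-fib. NASH-fib replicate 2, with the highest Mcam, had the lowest endothelial sum of its group, 1103. Any part of endothelial cells in the level of Mcam was not tested.

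Aoc3 (chr11:101330606-101339430, NM_009675) encodes vascular adhesion protein 1, an amine oxidase on the surface of smooth muscle and endothelial cells. It had 0 reads in all 3 HSC libraries, and its value was 514, 200 and 180 in the CCl4-fib libraries and 748, 845 and 290 in those of NASH-fib. The fibroblast groups overlapped. With HSCs set at the value of 3 reads per library, Aoc3 was at least 164-fold higher in NASH-fib and at least 78.0-fold higher in CCl4-fib, or at least 49.8-fold without CCl4-fib replicate 1. Its neighbour and paralog Aoc2 had at most 24 reads.

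Higd1b (chr11:102836296-102838039, NM_080846) encodes a mitochondrial inner membrane protein of the hypoxia-induced gene family and is a pericyte marker in several tissues. It had 0, 0 and 5 reads in HSCs. Its value was 582, 61.2 and 102 in the CCl4-fib libraries and 476, 1182 and 473 in those of NASH-fib. Both groups stood above HSCs, and CCl4-fib replicate 1 stood within the range of NASH-fib. Higd1b also showed the greatest excess of that replicate over the mean of the other 2 among the 10 genes, 7.12 times.

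Olfr558 encodes an olfactory receptor found on vascular smooth muscle. It had 0, 1 and 0 reads in HSCs, and its value was 1415, 208 and 265 in the CCl4-fib libraries and 1124, 2504 and 1735 in those of NASH-fib. Against the single read of HSCs, the ratio of reads at equal depth was 4469 in NASH-fib (exact 95% counting interval 802 to 176536) and 1574 in CCl4-fib (282 to 62214), or 559 without CCl4-fib replicate 1. Olfr78, a receptor known for responses to short fatty acids and lactate, had 0 reads in all HSCs. Its value was 198, 31.5 and 40.1 in the CCl4-fib libraries and 218, 333 and 320 in those of NASH-fib, so that its fibroblast groups did not overlap. It was at least 76.0-fold higher than HSCs in NASH-fib and at least 23.5-fold higher in CCl4-fib, or at least 9.36-fold without CCl4-fib replicate 1.

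The 2 receptors kept a narrow proportion in the fibroblasts. Per kb, the Olfr558 value was 8.56, 7.92 and 7.91 times that of Olfr78 in CCl4-fib and 6.18, 8.99 and 6.47 times in NASH-fib. The ratios of the 2 groups overlapped. Of the other 1105 olfactory receptor genes of the Olfr family, 1056 had 0 reads in all 9 libraries and only Olfr1033 passed 100 reads in any, with at most 510 and with 237 to 360 in HSCs. Olfr33 and Olfr559, annotated between the pair, had at most 10 reads each. Olfr78 shares 926 exonic bases, 15.35% of its exons, with Olfr560 on the same strand, and Olfr560 had at most 14 reads. Olfr558 shares 101 exonic bases, 3.32%, with the pseudogene Gm45688.

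NASH-fib were compared with HSCs in a limma fit over all genes, on log2(value + 1), where a call needed a difference of 1 or more in log2, in either direction, with an adjusted p below 0.05. Of the 10 genes, 5 were called higher (Cspg4, Olfr558, Olfr78, Higd1b and Aoc3) and 2 lower (Kcnj8 and Abcc9). Of all genes tested, 8.23% were called higher and 4.3% lower. The levels that led to the choice of the genes are the ones compared here, so nothing is read from the difference between those shares. The log2 fold change was -3.96 for Kcnj8 (SE 0.36) and -3.28 for Abcc9 (SE 0.35). It was 8.40 for Higd1b (SE 0.95), or 9.33 without HSC replicate 3, the library with its 5 reads. It was 1.35 for Mcam (SE 0.57), 1.24 for Rgs4 (SE 0.65) and 0.08 for Rgs5 (SE 0.60). The last 3 were not called, and the value for Rgs5 turned to -0.14 without HSC replicate 3 and -0.16 without NASH-fib replicate 1. All libraries of NASH-fib lay above all of HSCs for 7 genes, the 5 called higher with Rgs4 and Mcam, and below for 2, against 12.7% and 11.6% of all genes tested. The median log2 fold change was 3.80 over the 10 genes, or 3.34 with the 4 genes at or under 3 reads in HSCs set at their bound, and -0.02 over all genes tested.

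CCl4-fib were compared with the same HSCs, so the 2 comparisons share their controls. The same 5 genes were called higher, and 3 lower, with Rgs5 beside Kcnj8 and Abcc9. Over all genes tested, the shares were 16.2% higher and 11.7% lower. The log2 fold change was -5.42 for Abcc9 (SE 0.35), -2.49 for Kcnj8 (SE 0.36), -2.03 for Rgs5 (SE 0.60), -1.69 for Rgs4 (SE 0.65), -0.21 for Mcam (SE 0.57) and 6.34 for Higd1b (SE 0.95). The last of these was 5.39 or 7.00 when CCl4-fib replicate 1 or 2 was left out, and 7.28 without HSC replicate 3. The log2 fold change of Rgs5 was -2.77 without CCl4-fib replicate 1, and its call was lost without HSC replicate 1 (-2.03), HSC replicate 2 (-1.80), CCl4-fib replicate 2 (-1.48) or CCl4-fib replicate 3 (-1.84). Rgs5 also lost its call with edgeR's test (-1.77). Rgs4, not called, was at -1.03 without CCl4-fib replicate 2, and it was called lower without HSC replicate 3 (-2.17), without CCl4-fib replicate 1 (-2.36) or with the number pair that opens each sample description as a term (-1.54). Mcam turned to 0.01 or 0.20 when CCl4-fib replicate 2 or 3 was left out. All CCl4-fib libraries lay above all HSC libraries for 5 genes and below for 3, against 27.8% and 20.9% of all genes tested. The median log2 fold change was 2.90 over the 10 genes, 2.17 with the 4 genes at their bound, and 0.18 over all genes.

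**Figure D3:**
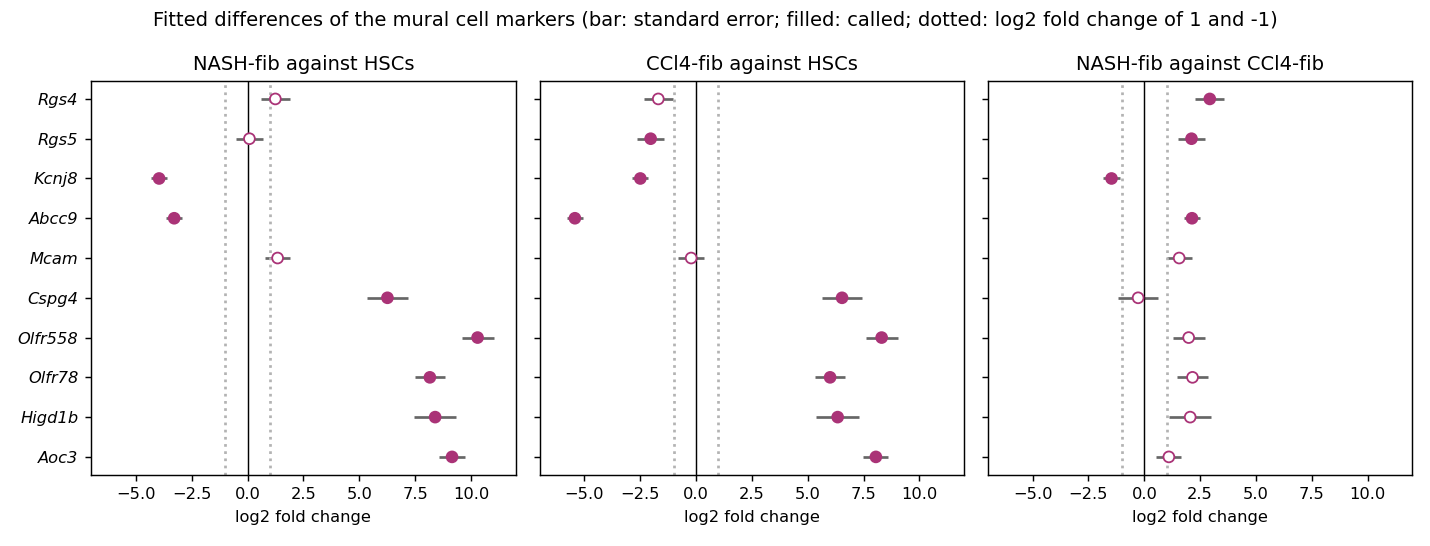
Fitted log2 fold change (horizontal axis) of the 10 mural markers (vertical axis) in the 3 comparisons, with bars for the standard error, filled points for called genes and dotted lines at 1 and -1. Kcnj8 and Abcc9 lie below 0 in both comparisons with HSCs, at -3.96 and -3.28 in NASH-fib and -2.49 and -5.42 in CCl4-fib; the values against HSCs of the genes at or near 0 reads there depend on the pseudocount.

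NASH-fib were compared with CCl4-fib to set the models of fibrosis against each other. Rgs4, Rgs5 and Abcc9 were called higher in NASH-fib and Kcnj8 lower, making 3 and 1 of 10, while 4.97% of all genes tested were called higher and 5.66% lower. The log2 fold change was 2.93 for Rgs4 (SE 0.65), 2.11 for Rgs5 (SE 0.60), 2.13 for Abcc9 (SE 0.35) and -1.47 for Kcnj8 (SE 0.36). The 6 genes not called had log2 fold changes of -0.28 for Cspg4 (SE 0.91), 1.10 for Aoc3 (SE 0.56), 1.56 for Mcam (SE 0.57), 1.98 for Olfr558 (SE 0.71), 2.05 for Higd1b (SE 0.95) and 2.16 for Olfr78 (SE 0.67). That of Higd1b was 3.01 or 1.39 when CCl4-fib replicate 1 or 2 was left out. By its own analysis, the study lists Olfr558, Olfr78, Higd1b and Aoc3 as upregulated in NASH-fib against CCl4-fib. In the fit here they had the same direction and passed the fold threshold, but not that on the adjusted p, so they were not called. The value for Cspg4 turned to 0.58 without the first CCl4-fib library and 0.34 without the first NASH-fib library. NASH-fib lay wholly above CCl4-fib for Rgs4, Rgs5, Abcc9 and Olfr78 and wholly below for Kcnj8, against 17.1% and 22% of all genes tested. The median log2 fold change was 2.02 over the 10 genes and -0.11 over all genes.

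The calls between the fibroblast groups changed with the libraries and the model fitted. The call on Rgs5 was lost with edgeR's test (1.94), with only these 2 groups fitted (2.11), with the replicate block (2.11), with the number pair as a term (1.92), with no filter (2.11) and with a pseudocount of 0.5 (2.11). That on Kcnj8 was lost under the first 4 of these, at -1.37, -1.47, -1.47 and -1.50. Leaving out CCl4-fib replicate 2 turned the 4 calls into 0. Leaving out HSC replicate 1, which enters only the shared spread, turned them into 2, with the folds of Rgs5 and Kcnj8 unchanged. Only Abcc9 stayed called, 1 of 10, when CCl4-fib replicate 3, NASH-fib replicate 1 or NASH-fib replicate 3 was left out, where Rgs4 was at 2.91, 2.64 and 3.20, Rgs5 at 1.92, 1.87 and 2.32, and Kcnj8 at -1.63, -1.51 and -1.40. Without CCl4-fib replicate 1 there were 6, all higher in NASH-fib, with Mcam (2.20), Olfr558 (2.85) and Olfr78 (2.97) added and Kcnj8 lost (-1.15), and with Rgs4 at 3.60 and Rgs5 at 2.85. Abcc9 lost its call only on leaving out CCl4-fib replicate 2, where its log2 fold change was 1.96. The log2 fold change of Rgs4 was 2.28 without CCl4-fib replicate 2, and that of Rgs5 was 1.56.

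CCl4-fib replicate 1 was the highest library of its group for 10 of the 10 genes, a place it took for 31.5% of all genes tested. Its value was between 1.94 (Abcc9) and 7.12 (Higd1b) times the mean of the other 2 replicates, with a median of 4.13 over the 10 genes and 0.972 over all genes. It was also the highest of its group for 11 of 14 smooth muscle genes, with a median ratio of 2.49, and for 29 of 33 mural-associated genes, with a median of 2.15. Its collagen markers, led by Col3a1, summed to 39088, the lowest of the group, where the others reached 43540 and 47450. The sample descriptions begin with a number pair that looks like a date, and HSC replicate 2, CCl4-fib replicate 1 and NASH-fib replicate 1 share one. Among these 3 libraries the log2 difference of NASH-fib from CCl4-fib was 2.16 for Rgs4, 1.12 for Rgs5, 1.50 for Abcc9 and -2.03 for Kcnj8. It lay between -0.33 and 0.54 for Mcam, Olfr558, Olfr78, Higd1b and Aoc3, and was -3.22 for Cspg4. CCl4-fib replicate 3 and NASH-fib replicates 2 and 3 share another number pair, and among them the difference was 2.68 for Rgs4, 2.24 for Rgs5, 2.42 for Abcc9 and -1.18 for Kcnj8, and from 1.34 for Cspg4 to 3.00 for Olfr78 over the other 6 genes. The log2 differences from HSCs within the first 3 libraries had the sign of the fit for all genes but Mcam, which was 0.86 higher in CCl4-fib.

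Other cell types differed between the groups as well. The smooth muscle sum, led by Acta2, was 3106 to 3962 in the HSC libraries, 18151 to 34945 in those of CCl4-fib and 17702 to 49893 in those of NASH-fib, where NASH-fib replicate 2, with the highest Cspg4, Mcam, Olfr558, Olfr78, Higd1b and Aoc3 of its group, was also the highest. Of 14 smooth muscle genes, 12 were called higher in NASH-fib than HSCs and 13 in CCl4-fib, with 0 lower in either, beside the 8.23% and 16.2% of all genes called higher. At or under 3 reads in every HSC library, 4 of the 14 could only be called higher, so the counts are a description. Of the 14, Lmod1, Myocd, Actg2, Casq2, Pln, Kcnmb1 and Synpo2 stood on the study's list of NASH-fib genes, so their direction is not independent evidence. The log2 fold change of Acta2, the actin of smooth muscle and myofibroblasts, was 6.81 and 6.57 (SE 0.38 in both), and that of Myh11, the smooth muscle myosin, was 6.18 and 5.10 (SE 0.76 in both). Without NASH-fib replicate 1 the first value of Myh11 was 6.87, and without CCl4-fib replicate 1 the second was 4.24. For Tagln, an actin-binding protein, the log2 fold change was 3.73 and 4.31 (SE 0.89 in both), or 2.66 and 3.24 without HSC replicate 2. The first was 4.60 without NASH-fib replicate 1 and was not called without NASH-fib replicate 2 (3.28) or 3 (3.32). Between NASH-fib and CCl4-fib, 0 of the 14 were called higher and 1 lower, beside 4.97% and 5.66% of all genes, and Acta2, Myh11 and Tagln differed by 0.24, 1.08 and -0.58. Markers of quiescent stellate cells, led by Lrat, an enzyme that stores vitamin A, summed to 33665 to 42442 in the HSC libraries, 4176 to 7382 in those of CCl4-fib and 2330 to 4116 in those of NASH-fib. Hepatocyte markers, led by Alb, summed to 19295 to 38675, 2017 to 2768 and 6129 to 25096. Macrophage markers, led by Lyz2, summed to 2841 to 11465, 335 to 750.2 and 2684 to 5424. Those of portal fibroblasts (led by Fbln2), mesothelial cells (Gpm6a) and cholangiocytes (Krt19) were all lower in every HSC library than in any fibroblast library. The part of these differences in the levels of the mural markers was not tested.

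A wider list of 34 mural-associated genes, written from general knowledge but with earlier results of these data known, was followed beside the 10 markers, and 33 passed the filter. Ebf1, Notch3 and Gjc1 of this list stood on the study's list of NASH-fib genes, drawn from these libraries, so their values and p are not independent evidence. In NASH-fib against HSCs, 9 were called higher and 5 lower, with a median log2 fold change of 0.94, and in CCl4-fib against HSCs 12 higher and 6 lower, with a median of 0.67. The shares of all genes called were 8.23% higher and 4.3% lower in the first comparison and 16.2% and 11.7% in the second, with medians of -0.02 and 0.18. The medians of the list were the same when genes at the floor in HSCs were set at their bound. The transcription factor Ebf1, which had 0 reads in HSCs, was at least 202-fold higher in NASH-fib and at least 48.9-fold higher in CCl4-fib, or at least 25.4-fold without CCl4-fib replicate 1. Trpc6, a calcium channel of smooth muscle, was also at 0 in HSCs and was at least 23.6-fold and at least 9.65-fold higher. Rergl, a small GTPase relative, was at least 15.5-fold and at least 8.71-fold higher. Rasl12, another small GTPase relative, had 3 reads in HSCs, and its ratio at equal depth was 247 in NASH-fib (exact 95% counting interval 84.3 to 1200.1) and 173 in CCl4-fib (58.9 to 839). The first ratio was 142 without NASH-fib replicate 2, and the second was 66.0 without CCl4-fib replicate 1. These 4 genes, counted above among those called higher, passed the filter only through the fibroblast libraries, so their differences from HSCs are a description, given with no p. They kept their calls against HSCs whichever single library was left out, as did Cd248, Itga7, P2ry14 and Pth1r.

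Receptors and structural genes of the list moved in both directions. Notch3, the Notch receptor of mural cells, had a value of 54.9, 2.91 and 15.5 in the HSC libraries, 509, 110 and 129 in those of CCl4-fib and 405, 1625 and 428 in those of NASH-fib. With 2.91 in HSC replicate 2, Notch3 passed the filter only with fibroblast libraries, so its differences from HSCs are a description, given with no p. Its log2 fold changes against HSCs were 5.42 in NASH-fib (SE 0.96) and 3.66 in CCl4-fib (SE 0.96). They were 4.43 and 2.68 without HSC replicate 2, 6.35 and 4.59 without HSC replicate 1, and the first was 4.76 without NASH-fib replicate 2. The second lost its call without CCl4-fib replicate 1 (2.97). Cd248, the endosialin of activated stromal cells, was higher by 3.04 and 4.94 on the log2 scale (SE 0.49, limma adjusted p = 0.002 and 7.368e-05). Itga7, a laminin-binding integrin, was higher by 3.88 and 4.27 (SE 0.67, limma adjusted p = 0.00323 and 0.00116), the first being 4.48 without NASH-fib replicate 1 and 3.16 without NASH-fib replicate 2. Cox4i2, a respiratory subunit tied to hypoxia, was higher by 5.56 and 5.08 (SE 1.51), with values from 28.6 to 1506 within NASH-fib. Without a read in HSC replicate 2, Cox4i2 also passed the filter only with fibroblast libraries, so no p is given. Its calls changed with the libraries fitted: the first was lost without HSC replicate 1 or 2, CCl4-fib replicate 3, or NASH-fib replicate 2 or 3 (4.30 to 5.71), and the second without HSC replicate 1 or 2 or CCl4-fib replicate 1 or 3 (3.85 to 5.29). Tbx18, a transcription factor of mural cells, and Ndufa4l2, a mitochondrial protein induced by hypoxia, were called in CCl4-fib alone, which does not show that the 2 models differ. Tbx18, at 0 in HSCs, was at least 7.10-fold higher in CCl4-fib, given with no p since it passed the filter only through the fibroblast libraries. Ndufa4l2 was higher in CCl4-fib by 4.25 on the log2 scale (SE 1.14, limma adjusted p = 0.0190). The call on Tbx18 was lost without HSC replicate 1 or CCl4-fib replicate 2 or 3. That on Ndufa4l2 was lost without HSC replicate 2 (3.97), CCl4-fib replicate 1 (3.32) or CCl4-fib replicate 2 (3.79), and its value was 5.65 without CCl4-fib replicate 3.

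P2ry14, a receptor for UDP-sugars, fell by 3.59 in NASH-fib and by 4.51 in CCl4-fib (SE 0.41, limma adjusted p = 0.000254 and 4.918e-05). Pth1r, the parathyroid hormone receptor of stellate cells, fell by 3.87 in NASH-fib and, in CCl4-fib, fell by 3.58 (SE 0.58, limma adjusted p = 0.00139 and 0.00136). Pdgfrb, the platelet-derived growth factor receptor shared by mural cells and fibroblasts, was not called. Its value was 898, 396 and 962 in the HSC libraries, 1700.1, 854 and 960 in those of CCl4-fib and 330.3, 1910 and 814 in those of NASH-fib, and the groups overlapped. Des, the intermediate filament desmin, was not called either, with log2 fold changes of 1.15 and 1.49 (SE 1.15) and a range of 32.6 to 1102 within NASH-fib.

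**Figure D4:**
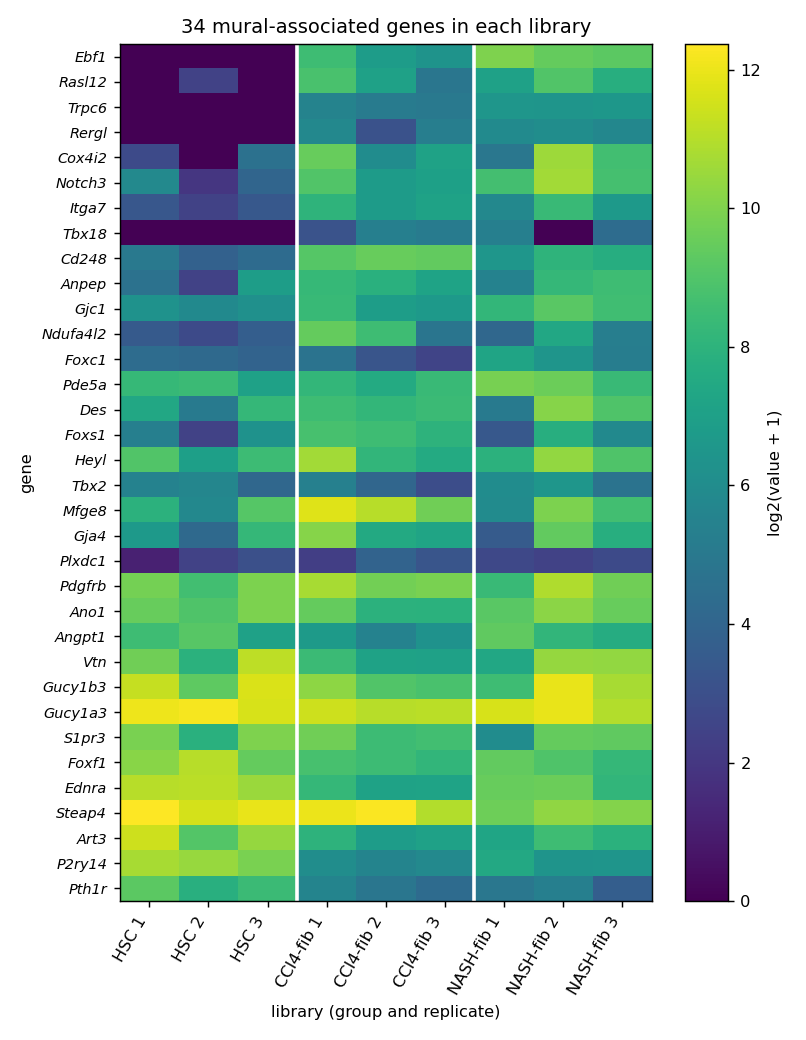
Level of the 34 mural-associated genes (rows) in each of the 9 libraries (columns), coloured by log2(value + 1), with white lines between groups. Ebf1, Trpc6, Rergl and Tbx18 are at 0 in the 3 HSC libraries, whereas Pth1r, P2ry14 and Art3 are higher there than in every fibroblast library.

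Between NASH-fib and CCl4-fib, 3 of the 33 were called higher and 2 lower, with a median log2 fold change of 0.48, beside 4.97% and 5.66% of all genes and a median of -0.11. Higher in NASH-fib was Ebf1 (2.33, SE 0.57, limma adjusted p = 0.0301), which stood on the study's list, so its p is not independent evidence. Also higher, and named after their values were seen, were Foxc1 (2.81, SE 0.69, limma adjusted p = 0.0306) and Angpt1 (2.19, SE 0.62, limma adjusted p = 0.0484). Against HSCs, Foxc1 was at 2.14 in NASH-fib and -0.68 in CCl4-fib, and Angpt1 at 0.12 and -2.08. Lower in NASH-fib than in CCl4-fib were Cd248 (-1.91, SE 0.49, limma adjusted p = 0.0344) and Steap4, also named after its value was seen (-1.73, SE 0.42, limma adjusted p = 0.0286). Steap4 was at -1.95 in NASH-fib and -0.22 in CCl4-fib against HSCs. No call (0) between the fibroblast groups was left without CCl4-fib replicate 2, NASH-fib replicate 1 or NASH-fib replicate 3, where Ebf1 was at 2.13, 2.13 and 2.47. The count was 2 or 1 when CCl4-fib replicate 1 or 3 was left out, and 3 without NASH-fib replicate 2.

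Paralogs of the markers were given for comparison, and 10 of the 17 passed the filter. Rgs2, the most abundant paralog of Rgs4 and Rgs5 by the mean over the 9 libraries, had a value of 171, 419 and 263 in the HSC libraries, 82.6, 49.3 and 170 in those of CCl4-fib and 474, 600.3 and 510.1 in those of NASH-fib, and was higher in NASH-fib than in CCl4-fib by 2.56 (SE 0.49, limma adjusted p = 0.0148). The call was lost without CCl4-fib replicate 2 (2.14) or NASH-fib replicate 3 (2.58). Higd1a, the widely expressed relative of Higd1b, was read in every library and its log2 fold change against HSCs was -1.16 in CCl4-fib (SE 0.33, limma adjusted p = 0.0264) and -0.42 in NASH-fib. The call was lost without HSC replicate 1 (-0.97) or 3 (-1.14) or on leaving out any 1 of the CCl4-fib replicates (-1.25 to -1.11). Aoc1 had 0 reads in HSCs and a value of at most 114 elsewhere. It was called higher than HSCs in both fibroblast groups, by an amount that depends on the pseudocount, and was not called between them. Alcam, an adhesion molecule related to Mcam, was higher than in HSCs by 2.40 in NASH-fib and 2.09 in CCl4-fib (SE 0.58, limma adjusted p = 0.0196 and 0.0223). Both calls were lost without HSC replicate 1 (2.09 and 1.77) or 3 (2.08 and 1.77), and the second also without CCl4-fib replicate 1 (2.03) or 2 (1.96). Without HSC replicate 2 the values were 3.03 and 2.72.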

How the data were processed

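RNA was amplified with the SMARTer Ultra Low Input kit before single-end sequencing, and the authors mapped the reads to mm10 by STAR. HOMER counted reads of both strands on RefSeq exons, by the stated settings up to 3 at any position, with transcripts merged by gene. The deposited values are a library-scaled signal, that is, reads times 1 factor per library. Whole reads (within 0.01) were recovered for 100% of values, and these set the depth, 3071070 to 5634273 reads per library. The header names 10 libraries. Of these, 9 have columns and were used, with 0 value columns left unused, and the other was not analysed here.

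Genes were kept by filterByExpr of edgeR 4.0.16 (minimum count 10) and fitted with limma 3.58.1 in R 4.3.3 on log2(value + 1), 1 fit over 9 libraries and 3 groups with a mean-dependent prior. Adjustment followed Benjamini and Hochberg over 13651 genes, and calls needed a log2 difference of 1 or more in either direction with an adjusted p below 0.05. A value per kb divides by the transcript length in the file. Folds against a group with 0 reads set it at 3 reads per library. The number of replicates limits precision, and replicates are pools of mice.

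The markers and lists were chosen with earlier results of these data known. Named genes were the 10 markers; of the mural-associated list the 12 called genes with the largest change, with Pdgfrb, Notch3, Des and Cd248; the most abundant paralog of each marker; Acta2, Myh11 and Tagln; the 5 genes most alike in pattern; and the most abundant gene of each cell type list. Alternatives were edgeR's quasi-likelihood test and DESeq2 1.42.0 on the recovered reads, upper-quartile scaling, no filter, pseudocounts of 0.5 and 8, a fit on 2 groups, a replicate block, the number pair opening each sample description as a term, and each library left out. Same-numbered libraries of different groups had residual correlations of -0.473 to 0.514, so the numbers do not pair them.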

Additional observations from a re-analysis of the deposited data

How the results depend on the processing

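The count of markers called stayed at 7 in NASH-fib against HSCs under all 18 alternatives, and between 7 and 9 in CCl4-fib against HSCs. In NASH-fib against CCl4-fib it fell from 4 to 2 (Rgs4 and Abcc9), with Rgs5 and Kcnj8 lost, under edgeR's test (1.94 and -1.37), with only the 2 groups fitted and with the replicate block (2.11 and -1.47 in both) and with the number pair of the sample descriptions as a term (1.92 and -1.50). It was 3 with no filter and with a pseudocount of 0.5, where Rgs5 was lost, and 5 with a pseudocount of 8, which added Olfr78 (2.01). Leaving out single libraries gave 0 to 6. For the mural-associated genes, the count in NASH-fib against HSCs fell from 14 to 7 with the number pair as a term, and leaving out libraries gave 11 to 16. In NASH-fib against CCl4-fib it was 10 with DESeq2 (8 higher, 2 lower), 2 with the replicate block and 1 with the number pair, and 0 to 5 when libraries were left out. In CCl4-fib against HSCs it was 12 to 20 when libraries were left out.

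Of the 30 fold changes of the markers, 28 to 30 kept their sign under each alternative. Those that turned were Rgs5 in NASH-fib against HSCs, at -0.031 with the number pair and from -0.16 to 0.31 when libraries were left out (below 0 without HSC replicate 3 or NASH-fib replicate 1), Mcam in CCl4-fib against HSCs, from -0.85 to 0.20 (above 0 on leaving out the second or the third CCl4-fib library), and Cspg4 in NASH-fib against CCl4-fib, from -0.93 to 0.58 (above 0 on leaving out the first library of either group). The cause was not tested. DESeq2 and upper-quartile scaling changed no call on a marker, and edgeR's test lost 3. Of 40 calls on the other named genes, 13 were lost with the number pair, 6 with the replicate block and 2 with edgeR's test. The scalings moved the median of all genes by -0.16 (edgeR) and -0.15 (DESeq2) in CCl4-fib against HSCs and by 0.25, 0.23 and 0.10 (upper quartile) in NASH-fib against CCl4-fib. HSC replicate 2 and NASH-fib replicate 1, which share a number pair, deviated from their group means together (r = 0.645), and CCl4-fib replicate 1, with the same pair, did not (r = -0.0721 and -0.127). Without any HSC read, the depth allows only lower bounds for Aoc3 and Olfr78.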

Other observations

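The genes outside the 10 markers whose pattern over the 9 libraries was most like the mean profile of the markers were Akr1b7 (r = 0.985), an aldo-keto reductase, Rims2 (r = 0.983), a synaptic scaffold of secretory vesicles, Map3k7cl (r = 0.979), Pcsk1 (r = 0.978), a prohormone convertase, and AW549542 (r = 0.978). Akr1b7, Rims2, Map3k7cl and Pcsk1 had 0 reads in all HSC libraries. The value of Map3k7cl was 100.01, 12.8 and 19.1 in the CCl4-fib libraries and 117, 476 and 408 in those of NASH-fib, and that of Akr1b7 was 34.9, 5.95 and 11.5 in the CCl4-fib libraries and 62.5, 174 and 41.3 in those of NASH-fib. As with the markers, CCl4-fib replicate 1 was the highest of its group for all 5. The likeness was the criterion by which these genes were picked and is given with no test. Map3k7cl also stood on the study's list of NASH-fib genes, drawn from the same libraries.

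The mean profile stood closest to Olfr78 (r = 0.97), Olfr558 (r = 0.96) and Higd1b (r = 0.95) among the markers themselves. Kcnj8 and Abcc9 ran against it (r = -0.87 and -0.61), and Rgs5 was nearly unrelated (r = 0.10). The mean includes each marker itself and is not scaled, so markers with the widest span, those near 0 reads in HSCs, weigh most in it. These correlations are over the same 9 libraries of 3 groups and describe the group levels.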
